A study of Saccharomyces cerevisiae with 100 samples.

Results

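The genes described here are 33 genes of Saccharomyces cerevisiae whose products remove messenger RNA. They were listed by name from what is known of the pathway, with the study's own findings in these strains known, out of 6021 protein-coding genes named in the R64 assembly. Their single-nucleotide variants (SNVs) were read from whole-genome sequencing of 100 strains, with 1 library for each strain. Strains with resistance to methyl methanesulfonate (MMS), a DNA-alkylating agent, were compared with more sensitive control strains. The largest set consisted of 95 suppressors, each labelled MATa sml1Δ::URA3 rad53Δ::LEU2 and named by its label (SUP1, for example), and their control YJT75 carries the same 2 deletions. Rad53 is the effector kinase of the DNA damage checkpoint, and Sml1 inhibits ribonucleotide reductase. The other experiments compared YMS6 with YGDP939 and S64Balpha with W64Aalpha. The label of YMS6 gives MATa and the W303 marker alleles of ADE2, URA3, HIS3, TRP1, LEU2 and CAN1, and the study describes the strain as exo1Δ rad53Δ. YGDP939 is sml1Δ::URA3 rad53Δ::LEU2 exo1Δ::HIS3, with no mating type in its label. S64Balpha and W64Aalpha are both MATalpha, with the deletions sml1Δ::URA3 and rad53Δ::HIS3 and, in addition, chk1Δ::LEU2 and exo1Δ::TRP1, and S64Balpha is a suppressor derived by backcrossing. All strains are W303 derivatives, and each is 1 isolate with no replicate library.

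Cytoplasmic mRNA is usually degraded in an ordered way. The Ccr4-Not and Pan2-Pan3 complexes shorten the poly(A) tail, the Dcp1-Dcp2 enzyme then removes the 5′ cap, and the exonuclease Xrn1 digests the exposed transcript, while the exosome and the Ski complex degrade RNA from the other end. Nonsense-mediated mRNA decay (NMD) sends transcripts with a premature stop codon into this machinery through the Upf proteins. The genes were accordingly divided into 5 steps: NMD (4 genes), decapping (9), 5′ to 3′ decay (3), deadenylation (10), and exosome and Ski (7).

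The deposited value for each SNV is the allele frequency, that is, how large a part of the reads covering the position in a library shows the changed base. In a haploid strain, an SNV present in every cell has an allele frequency near 1. SNVs were counted where the allele frequency was 0.7 or higher. They were called nonsilent where they changed an amino acid, created or removed a stop codon, or removed the start codon. The read depth behind single values is unknown, and confidence intervals given below cover counting of SNVs, genes or strains only. NMD2, UPF3, XRN1 and DCP2 were singled out by the study in these same strains, so that their counts are not independent evidence about the pathway. The study also picked RAI1 and MOT2 from these strains for deletion tests, so the remaining members are not free of genes it chose. It reports that deletion of NMD2, UPF3 or XRN1 suppressed the MMS sensitivity of rad53Δ cells. Deletion of NMD2 also raised the survival of RAD53 cells in MMS, and the study regards this effect as not specific to the checkpoint. DCP2 is not among the deletions that the study lists as tested. RAI1 and MOT2 are not among the deletions it reports as suppressing. Sums over suppressors count a shared SNV in every carrier, and distinct SNVs count it once.

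Across the suppressors, mRNA decay genes were mutated mainly in DCP2, XRN1 and NMD2. The counted SNVs had allele frequencies close to 1, and the median over the nonsilent SNVs of all genes was also 1.0. At a minimum of 0.7, the 33 genes carried 21 nonsilent SNVs summed over the suppressors, which were 19 distinct SNVs in 9 genes and 19 suppressors. Of the 19 distinct SNVs, 17 were missense and 2 were nonsense, in NMD2 and NOT3. The share of members with a nonsilent SNV was 27.3% (9 of 33 genes, 95% Clopper-Pearson interval 13.3% to 45.5%), beside 16.5% of all 6021 protein-coding genes. The interval includes the genome-wide share. Without the 4 genes singled out by the study, 5 of 29 members carried a nonsilent SNV, which is 17.2% (5.85% to 35.8%) and close to that of all genes. Gene lengths were not taken into account in these shares.

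Synonymous SNVs were few in the same genes. The 33 genes carried 3 distinct synonymous SNVs, 2 in CDC39 and 1 in SKI2, so that 19 of 22 distinct coding SNVs were nonsilent (86.4%, 95% Clopper-Pearson interval 65.1% to 97.1%). Over all genes the share was 73.5% (1221 of 1662 SNVs), which lies inside that interval. All 13 distinct coding SNVs in NMD2, UPF3, XRN1 and DCP2 were nonsilent. The study picked these 4 genes from the same strains for recurring missense SNVs, so a high share was built into the choice. No interval is given for it, and it is not read as a result. In the other 29 genes 6 of 9 were nonsilent (66.7%, interval 29.9% to 92.5%). Nonsense SNVs were 2 of the 19 nonsilent SNVs in the members (10.5%) and 3.52% of those in all genes. With only 2 SNVs, no difference is read from these shares.

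**Figure D1:**
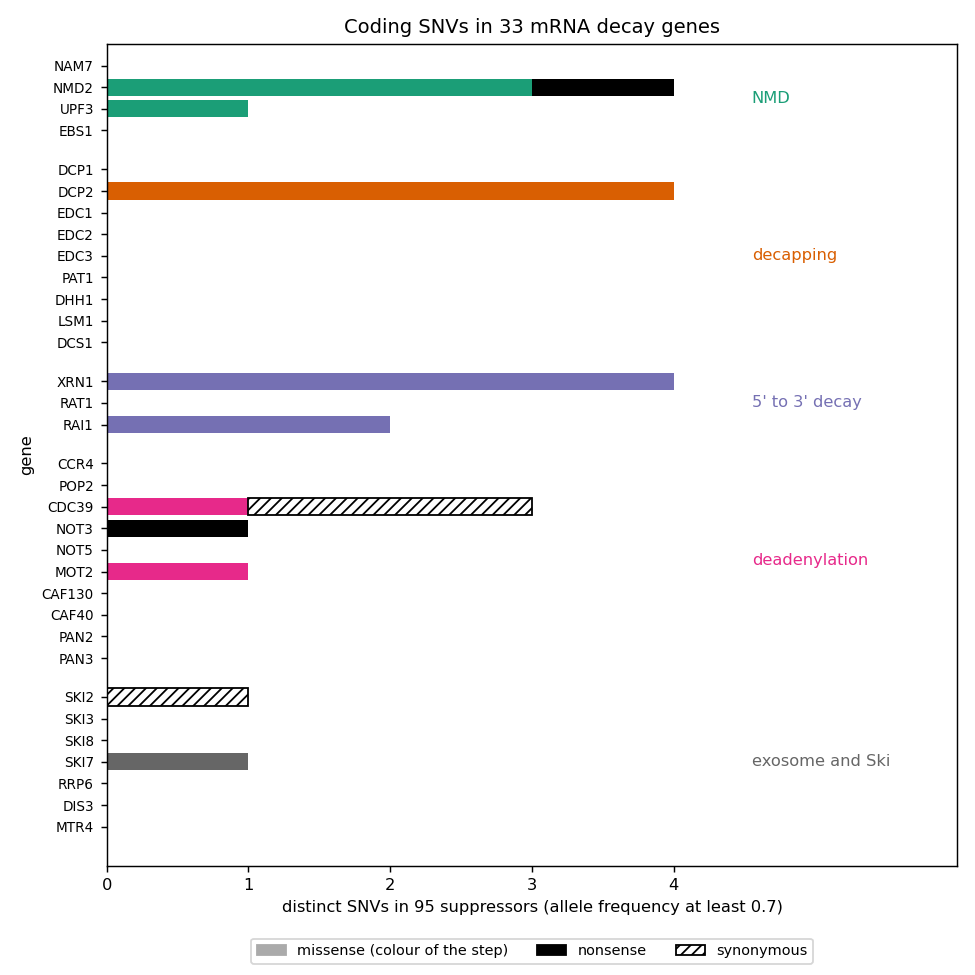
Distinct coding SNVs in each of the 33 mRNA decay genes with an allele frequency from 0.7 upwards in the 95 suppressors (horizontal axis, number of SNVs), with genes grouped by step on the vertical axis. Coloured bars are missense, black nonsense and hatched synonymous SNVs; NMD2, DCP2 and XRN1 reach 4 nonsilent SNVs each, and most other genes have none.

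Among the 4 NMD genes, NMD2 (YHR077C, also called UPF2) and UPF3 (YGR072W) were mutated, in 4 suppressors. Their products bind each other and act together with the helicase Upf1 in NMD. On chromosome VIII of the sacCer2 assembly, in which all positions are given here, NMD2 carried a missense SNV at position 255044 in SUP2 (G255044C), and its allele frequency was 1.0. In this notation the reference base comes first, then the position, with 1 as the first base of the chromosome, then the changed base, both on the Watson strand. SUP17 carried a pair of NMD2 missense SNVs, T255151A and G255533T, each at 1.0, and these lie 382 bases apart. In SUP52, an SNV annotated as a gained stop codon, C255585A, was present at 1.0. The systematic name marks NMD2 as a gene of the Crick strand, on which higher positions are nearer to the start of the gene, so the nonsense SNV was the one nearest to the start. The 4 NMD2 SNVs all fell within 541 bases. UPF3 carried 1 missense SNV, C635226G on chromosome VII, in SUP78, at an allele frequency of 0.994. NAM7, which encodes Upf1, and EBS1, whose product resembles a human NMD factor, had no SNV listed.

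In the decapping step, DCP2 (YNL118C), the catalytic subunit that hydrolyses the cap, was mutated in 5 suppressors and no other gene reached an allele frequency of 0.7. The DCP2 SNVs lie on chromosome XIV, and all were missense. SUP6 carried A403558C, SUP131 carried G403707T and SUP91 carried G404407C. SUP35 and SUP40 both carried T405341G. The allele frequency was 1.0 in each of the 5 strains. The 4 distinct SNVs spanned 1783 bases, with gaps of 149 to 934 bases, and were thus more spread out than those in NMD2.

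The DCP2 SNV of SUP35 and SUP40 differs from the other SNV shared by a pair of carriers in how much else the strains have in common. SUP35 and SUP40 shared 3 SNVs in all, and the DCP2 SNV was the only one found in no further suppressor. Another was a missense SNV in SDT1, carried by 9 suppressors, of which 7 had the DCP2 position at an allele frequency of 0. Over the whole table, 31 SNVs were found in exactly 2 suppressors, and they came from 8 pairs of strains. In 6 of these pairs only 1 SNV was shared in this way, and it was nonsilent in 3 of them, in DCP2, YPR148C and GDH1.

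DCS1 (YLR270W) encodes a scavenger enzyme that degrades the cap left over after decay from the 3′ end. It carried missense SNVs on chromosome XII in SUP3 (G681228T) and SUP117 (C681840G), but at allele frequencies of 0.457 and 0.483, under the minimum of 0.7. At the deposited minimum of 0.40, where DCS1 is counted, 10 of the 33 genes carried a nonsilent SNV, beside 19.4% of protein-coding genes, and 87.5% of the members' distinct coding SNVs were nonsilent, beside 73.9% over all genes. Intermediate values were common on that chromosome. Of 93 suppressors with an SNV on it, 79 had a median allele frequency there between 0.4 and 0.6, SUP3 and SUP117 among them, with medians over chromosome XII of 0.477 (12 SNVs) in SUP3 and 0.482 (4 SNVs) in SUP117. DCP1, the activating subunit of the decapping enzyme, carried no SNV. The same held for EDC1, EDC2 and EDC3, which enhance decapping, and for PAT1, LSM1 and DHH1, which act before it on deadenylated mRNA.

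In the 5′ to 3′ step, XRN1 and RAI1 were mutated in 6 suppressors, and RAT1, the nuclear counterpart of XRN1, in none. XRN1 (YGL173C, chromosome VII) encodes the main cytoplasmic exonuclease that digests decapped RNA. SUP79 carried a pair of missense SNVs in it, T176908C and G177944C, which lie 1036 bases apart. SUP86 carried the missense SNV C179113T, and SUP118 and SUP119 both carried C179270T. All had an allele frequency of 1.0. The 4 distinct XRN1 SNVs spanned 2362 bases, the widest range of the 3 genes with 4 SNVs. SUP118 and SUP119 shared 22 SNVs in all, 19 of which were found in no other suppressor, whereas SUP35 and SUP40 shared 1 SNV of that kind. RAI1 (YGL246C, chromosome VII) encodes a partner of the nuclear exonuclease Rat1. It carried the missense SNV T38032C in SUP69 at an allele frequency of 0.995 and A38638T in SUP59 at 1.0, at positions 606 bases apart.

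**Figure D2:**
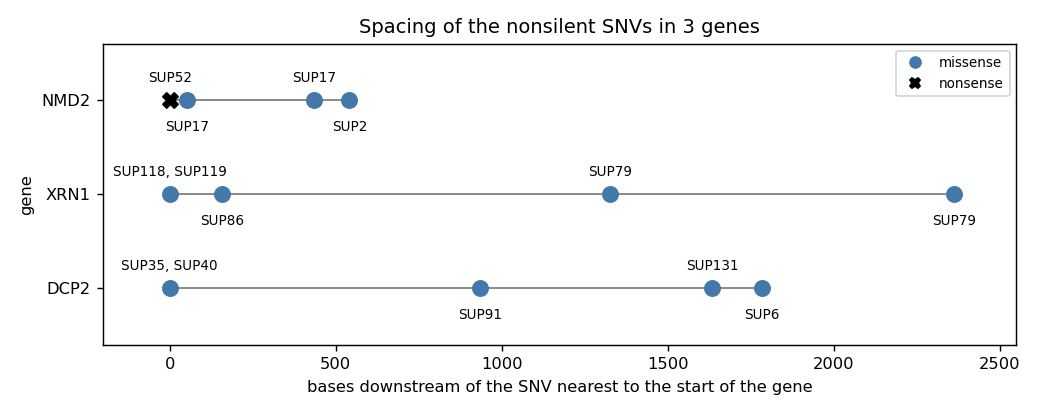
Spacing of the nonsilent SNVs in NMD2, XRN1 and DCP2, as bases downstream of the SNV nearest to the start of each gene (horizontal axis), with the carrier strains named beside each point. Circles are missense SNVs and the cross is the nonsense SNV; the NMD2 SNVs fall within 541 bases, and those of DCP2 and XRN1 extend over 1783 and 2362 bases.

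Of the 10 deadenylation genes, 3 were mutated in 1 suppressor each, and all 3 encode subunits of Ccr4-Not. NOT3 (YIL038C, chromosome IX) carried a nonsense SNV, G282412C, in SUP92 at an allele frequency of 1.0. MOT2 (YER068W, chromosome V), which encodes the ubiquitin ligase Not4, carried the missense SNV A294203G in SUP74 at 1.0. CDC39 (YCR093W, chromosome III) encodes Not1, the scaffold of the complex. It carried a missense SNV in SUP45 (G285937A, allele frequency 0.988), and also synonymous SNVs in SUP91 (C280686T, 0.977) and SUP8 (T282760C, 1.0). CDC39 was the only member in which both kinds of SNV were found. No SNV was listed in CCR4 or POP2, the deadenylases of the complex, in its subunits NOT5, CAF40 and CAF130, or in PAN2 and PAN3, which form the second deadenylase.

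Among the 7 genes of the exosome and Ski step, 1 was changed in its protein sequence. SKI7 (YOR076C, chromosome XV), which links the Ski complex to the cytoplasmic exosome, carried the missense SNV T471264A in SUP1 at an allele frequency of 1.0. SKI2 (YLR398C, chromosome XII), the helicase of the Ski complex, carried a synonymous SNV in SUP74, T916311C, at 0.996. The 6 chromosome XII SNVs of SUP74 ranged from 0.454 to 1.0. The Ski complex subunits SKI3 and SKI8, the exosome nucleases DIS3 and RRP6, and MTR4, the helicase that feeds the nuclear exosome, carried no SNV.

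Compared by step, most nonsilent SNVs lay in the genes from NMD to 5′ to 3′ decay, and this order rested on the 4 genes that the study singled out. Summed over suppressors there were 5 in NMD, 5 in decapping, 7 in 5′ to 3′ decay, 3 in deadenylation and 1 in the exosome and Ski genes. Counted once each, they were 5, 4, 6, 3 and 1. In the first 3 of these steps all distinct coding SNVs were nonsilent, 15 against 0 synonymous, and in the last 2 there were 4 nonsilent and 3 synonymous SNVs. Of the 15, 13 lay in the 4 genes that the study picked for missense SNVs. Without NMD2, UPF3, XRN1 and DCP2 the order turned, with 2 distinct nonsilent SNVs left in the first 3 steps, both in RAI1, and 4 in the last 2, in CDC39, MOT2, NOT3 and SKI7. No difference between steps was tested.

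All 24 SNVs in the members, 3 of them synonymous and the 2 of DCS1 included, were listed at 0 in YJT75. In the suppressors that did not carry them, 9 of the 24 were at 0 everywhere. The other 15 were above 0 in at least 1 further library, at no more than 0.0145 except for the SKI7 SNV, which was at 0.0396 in SUP46. Of the 21 nonsilent values at 0.7 or above, 18 were 1.0 and the lowest was 0.988. Over all genes, 904 of 1316 such values were 1.0. Carriers were defined by a minimum allele frequency, and SNVs had to stay under 0.1 in the control. The gap between carriers and other libraries was thus partly fixed by these limits and is not read as a result.

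**Figure D3:**
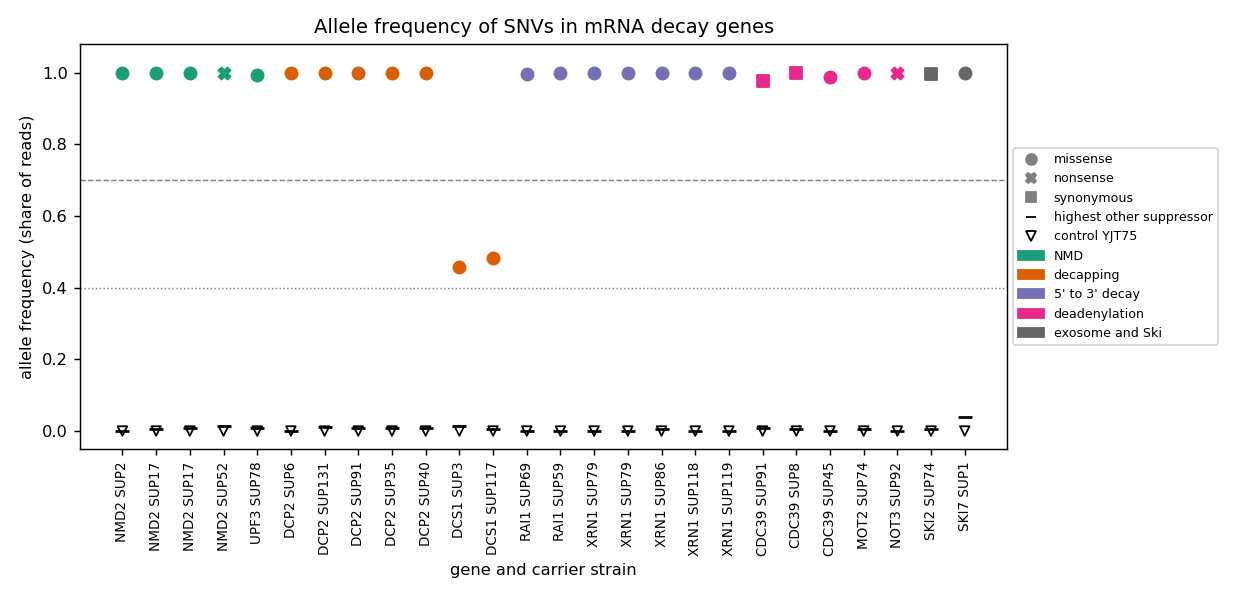
Allele frequency (vertical axis, share of reads) of each SNV in the mRNA decay genes, 1 column for each gene and carrier strain, coloured by step. Filled symbols are the carriers, short bars the highest value in any other suppressor and open triangles the control YJT75; dashed and dotted lines mark 0.7 and 0.4. The carriers sit between 0.977 and 1.0, except DCS1 at 0.457 and 0.483.

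The members with several mutations stood at the top of the genome-wide count. Over all annotated genes, 842 had 1 distinct nonsilent SNV, 146 had 2, 21 had 3 and 6 had 4, the highest number reached. DCP2, XRN1 and NMD2 were 3 of these 6 genes, and the others were YDL124W, YIL108W and TEA1. None of the 6 had a synonymous SNV. Over all genes there were 441 distinct synonymous SNVs, so most of the 6021 protein-coding genes had none. Thus 3 of the 33 members (9.09%) had 4 distinct nonsilent SNVs, beside 0.0997% of all protein-coding genes. The same 3 members were those with at least 3, beside 0.448% of protein-coding genes. With RAI1, which had 2, the members with at least 2 were 12.1%, beside 2.86% of protein-coding genes, and UPF3, CDC39, MOT2, NOT3 and SKI7 had 1 each. Of the 29 members other than these 3 and UPF3, 1 had at least 2 (3.45%, 95% Clopper-Pearson interval 0.0873% to 17.8%), near the share of all genes, and 0 had 3 or 4. That member was RAI1, which the study also picked for a deletion test. The place of DCP2, XRN1 and NMD2 is therefore given as a description.

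The SNVs of the 6 genes differed in their carriers and their spacing. DCP2 was mutated in 5 suppressors, XRN1 in 4 and NMD2 in 3. YIL108W was mutated in 5, YDL124W in 4 and TEA1 in 3. Nonsense SNVs were present in NMD2, with 1, and in YIL108W, with 2. The 4 SNVs of YDL124W spanned 382 bases, fewer than the 541 of NMD2, and those of YIL108W and TEA1 spanned 1699 and 2159 bases.

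**Figure D4:**
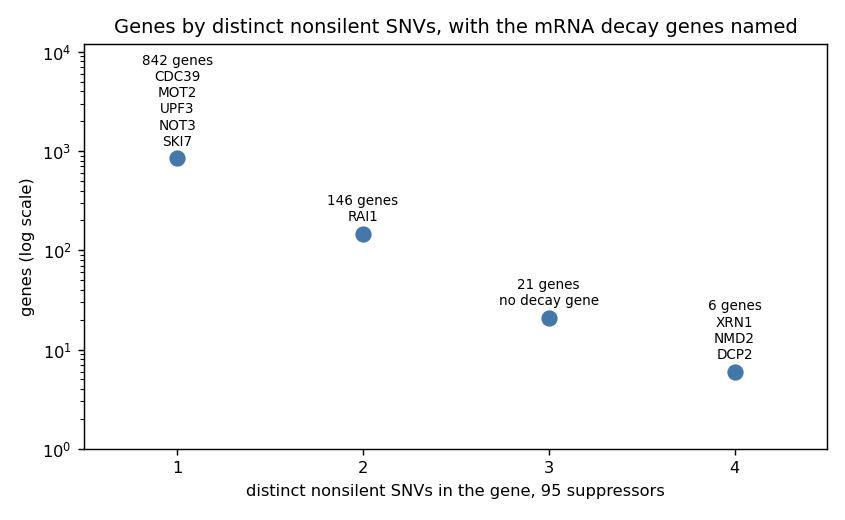
Number of genes (vertical axis, log scale) with 1, 2, 3 or 4 distinct nonsilent SNVs (horizontal axis) in the 95 suppressors, counted from an allele frequency of 0.7, with the mRNA decay genes of each class named. Of 6 genes with 4 SNVs, 3 are XRN1, NMD2 and DCP2.

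The base changes behind the 19 distinct nonsilent SNVs covered every class. With each change written from its pyrimidine, C-to-G was the most frequent, with 5 SNVs (26.3%, 95% Clopper-Pearson interval 9.15% to 51.2%), beside 17.04% over all 1221 nonsilent SNVs. T-to-C, the most frequent class over all genes at 25.6%, accounted for 3 of the 19 (15.8%, interval 3.38% to 39.6%). Transitions were 31.6% of the members' SNVs (interval 12.6% to 56.6%) and 39.4% of all. Each of these intervals includes the share over all genes.

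The 19 carriers of a nonsilent SNV in the members made up 20.0% of the suppressors. Each carried it in a single member gene, and SUP17 and SUP79 had a pair of SNVs in theirs. Carriers had 17 ± 5.54 nonsilent SNVs in the whole genome (SD, n = 19 strains), against 13.1 ± 6.14 in the other strains (n = 76). SUP118 and SUP119, which share 19 SNVs found in no other suppressor, were counted as separate carriers. Leaving out the SNVs in the members themselves, the carriers had 15.9 ± 5.40. A strain with more SNVs has a greater chance of carrying one in any gene, so this difference is given without a test. The carrier with the fewest was SUP131, with 6 nonsilent SNVs including the one in DCP2, and the carrier with the most was SUP45, with 27. In the carriers, nonsense SNVs outside the member genes were present in 7 of 19 strains, and in the other suppressors in 26 of 76.

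Carriers were found among suppressors with and without a widely shared missense SNV in GUD1. It was present in 49 suppressors, the highest number for any SNV and reached by 3 SNVs, and 9 of the 49 were carriers (18.4%, 95% Clopper-Pearson interval 8.76% to 32.0%). Of the 46 suppressors without it, 10 were carriers (21.7%, interval 10.9% to 36.4%). The intervals treat strains as independent, but the related strains SUP118 and SUP119 both count among the 9. DCP2 was mutated on both sides, in SUP91 and SUP131 with the GUD1 SNV and in SUP6, SUP35 and SUP40 without it. XRN1 was mutated in 4 strains with it, SUP118 and SUP119 among them, and NMD2 in 3 strains without it.

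**Figure D5:**
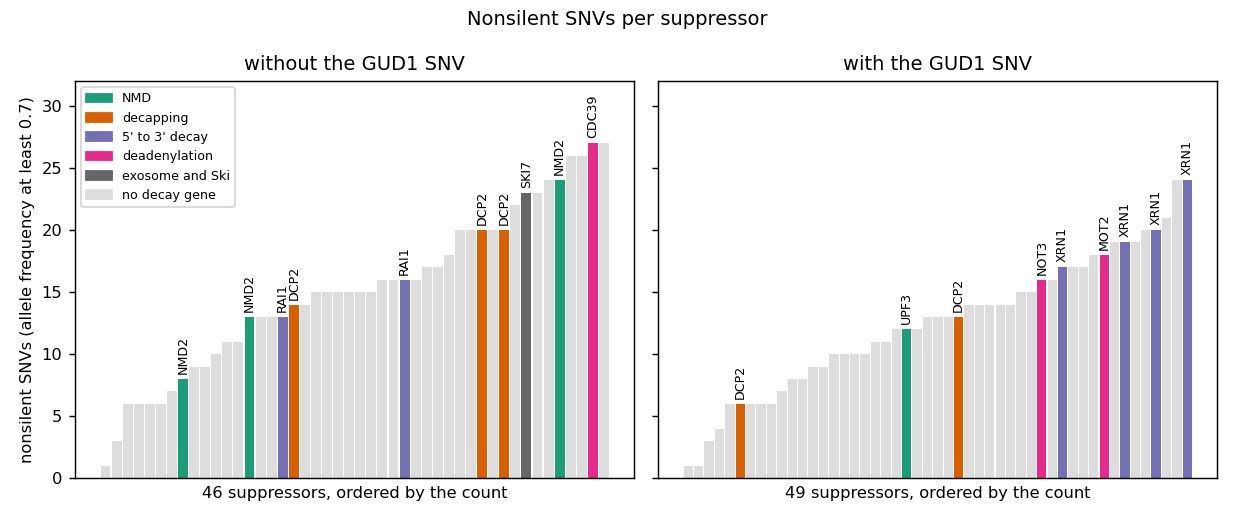
Nonsilent SNVs per suppressor, counted from an allele frequency of 0.7 (vertical axis), 1 bar for each strain, in the 46 suppressors without (left) and the 49 with (right) the GUD1 SNV, ordered by the count. Coloured bars are strains with a nonsilent SNV in an mRNA decay gene, which is named above the bar; carriers have between 6 and 27 nonsilent SNVs.

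Nonsilent SNVs in Rph1, a histone demethylase, or in subunits of the expanded Rpd3L histone deacetylase complex were present in 4 of the 19 carriers and in 2 of the 76 other suppressors. The carriers were SUP45, SUP79 and SUP86, each with an SNV in SNT1 beside those in CDC39, XRN1 and XRN1, and SUP69, with an SNV in SAP30 beside that in RAI1. SNVs in the silencing genes SIR1, SIR4 and ESC1 were found in 3 suppressors, and none of these was a carrier. With 20.0% of all suppressors being carriers, and with more nonsilent SNVs outside the members in carriers than in other strains (15.9 against 13.1), nothing is read from these small counts, which were not tested.

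A further 53 genes that act in the same steps were looked up by name. They carried 13 nonsilent SNVs, all missense, in 8 genes and 12 suppressors, and 3 synonymous SNVs (81.3% nonsilent, 95% Clopper-Pearson interval 54.4% to 95.95%). The share of all coding SNVs, 73.5%, is within this interval. The genes with a nonsilent SNV were 15.1% of the 53 (interval 6.75% to 27.6%), close to the 16.5% of all protein-coding genes. MET22, whose product prevents the build-up of an inhibitor of Xrn1, carried 2 SNVs, in SUP73 (G206350C) and SUP82 (T206420G) on chromosome XV. PAB1, the poly(A)-binding protein, carried C511570G in SUP86 and A511883G in SUP8 on chromosome V. MPT5 and PUF4, RNA-binding proteins that direct deadenylation, carried 2 SNVs each, those in MPT5 being both in SUP4. The study tested a deletion of MPT5 and does not list it among those that suppressed. TIF4632, an eIF4G translation factor, carried 2, and PBY1, TRF5 and NAB3 carried 1 each. None of the 6 further genes linked to NMD, among them the genes SUP35 and SUP45, which encode the translation release factors and share their names with suppressor strains, was mutated. Together the 86 genes had nonsilent SNVs in 28 suppressors, of which 13 had one in the 4 genes singled out by the study. The number of suppressors for other sets of 86 genes was not computed, so nothing is read from this count.

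YMS6 and S64Balpha had no SNV in the 33 genes. None of the 163 SNVs listed for YMS6 against YGDP939 and none of the 25 listed for S64Balpha against W64Aalpha overlapped a member or lay next to one, at the deposited minimum allele frequency of 0.25. These SNVs are few beside 6021 protein-coding genes, so their absence from 33 genes is not read as a result about the pathway.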

How the data were processed

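Genomic DNA of 100 strains was sequenced with paired-end reads. The authors aligned them to sacCer2 with Novoalign 2.07.14, removed PCR duplicates from the longer reads with Picard 1.81, obtained base counts from deepSNV and called SNVs separately for 3 experiments. SNVs had to stay under 0.1 in the control strain, and snpEff gave their effects. The deposited allele frequencies are a fraction of reads, with a minimum of 0.40 in a suppressor (0.25 in YMS6 and S64Balpha). The value 10, which the deposited files hold in place of 1, was read as 1.

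Members and lists were chosen with earlier results of these data known. Every member with an SNV is named, and of the further genes those with a nonsilent SNV. SNVs were assigned to genes by the 1 overlapping gene that the tables give for each SNV. Gene names came from R64 (1506 of 1632 identifiers matched), and no R64 position was used. Numbers of reads are not in the tables used here, so the depth per SNV is unknown. Planned counts per coding length, residue changes and protein positions were not computed, because no sacCer2 sequence was used here, and counts per gene are given instead. No test was run, since the members were chosen with results known. No strain has a replicate library. Intervals are exact (Clopper-Pearson, 95%). Counting was tested on simulated data. Computations were run in Python 3.11.15 with pandas 2.3.3 and numpy 2.4.6, intervals with scipy 1.17.1 and plots with matplotlib 3.10.9.

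The alternatives were other minimum allele frequencies (0.40 and 0.9), splice-site SNVs counted as nonsilent, SNVs at 0 in the control only, distinct SNVs, SNVs found in 1 suppressor, related suppressors (5 or more SNVs shared by no other) counted once, and omission of chromosome XII. Omission of the 4 genes singled out by the study was chosen after seeing the data.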

Additional observations from a re-analysis of the deposited data

Results flagged for a closer look

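The SKI7 missense SNV of SUP1 had an allele frequency of 0.0396 in the library of SUP46, far under the minimum used for calls, while it was at 0 in YJT75. Of the 57 SNVs that only SUP1 carried, 27 were above 0 in SUP46, with a median of 0.0406 among those 27 and a highest value of 0.0688. Conversely, 1 of the 31 SNVs that only SUP46 carried was above 0 in SUP1, at 0.0032. The pair was not the only one of this kind: of the 46 SNVs that only SUP62 carried, 28 were above 0 in the library of SUP52, the carrier of the NMD2 nonsense SNV, with a highest value of 0.0352. Such shares were taken over 8836 ordered pairs of strains, in each of which the first strain had 5 or more SNVs of its own. The median share above 0 in the other library was 0% and the highest was 100%. The origin of these low-frequency reads was not tested.

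Outside annotated genes, 5 distinct SNVs lay next to a member, a class that the counts of coding SNVs leave out. Next to means that the member was listed as the upstream or downstream gene. The other neighbours were CTF18, snR40, SEC21, NOG2 and PHO80. Distances to the genes and the share over all genes were not computed, so nothing is read from this count. They were next to NAM7 (G426549T on chromosome XIII, SUP3), CAF40 (T89356C in SUP118 and SUP119, and A91979T in SUP111, on chromosome XIV), POP2 (G720892A on chromosome XIV, SUP54) and RRP6 (T326584C on chromosome XV, SUP39). The allele frequency was 1.0 in every carrier and 0 in YJT75. None of these 4 genes had a coding SNV.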

How the results depend on the processing

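Without DCP2, XRN1, NMD2 and UPF3, the nonsilent SNVs fell from 21 to 6, as did the distinct nonsilent SNVs and the suppressors with one (both from 19 to 6), the genes with one went from 9 to 5 and the nonsense SNVs from 2 to 1. By step, 0 nonsilent SNVs were left in NMD, 0 in decapping and 2 in 5′ to 3′ decay. These 8 were the only values, of 84 computed under the alternatives, that moved by more than 1.5 times (or, for the nonsilent share, out of its interval). Some of the 84 could not move, so the number that stayed is no measure of robustness. All member SNVs were at 0 in YJT75, so keeping only SNVs at 0 in the control gave the main values again. Counting distinct SNVs left the distinct counts as they were by definition. No counted nonsilent SNV of a member lay on chromosome XII. Omitting that chromosome could therefore change only the synonymous count and the nonsilent share. At the deposited minimum of 0.40, DCS1 was added, which gave 23 nonsilent SNVs in 21 suppressors and 10 genes, and 87.5% of coding SNVs were nonsilent. With SUP119 and SUP47 left out as relatives of other suppressors, 20 nonsilent SNVs remained in 18 suppressors. No paired analysis was possible because each strain has 1 library and the results come from no test. The unknown depth limits the precision of single allele frequencies, and the small number of SNVs limits the shares per gene and per step.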
